A study of Mus musculus with 4 samples.

Results

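MHC class II molecules hold peptides taken up from outside the cell and show them to CD4+ T cells. The 9 genes described here are the mouse genes H2-Aa, H2-Ab1, H2-Eb1, H2-DMa, H2-DMb1, H2-DMb2, H2-Oa, Cd74 and Ciita, chosen by symbol, and all 9 were found among the 32285 genes counted. Their unique molecular identifiers (UMIs, counted cDNA molecules) were followed across monocytes, macrophages, dendritic cells, B cells, endothelial cells and cancer cells of tumours. The tumours came from Pan02, a murine line of pancreatic cancer, injected under the skin of C57BL/6 females aged 6 to 7 weeks, and treatment groups were formed once tumours reached roughly 50 mm3. Control mice received IgG at 25 mg/kg, the second group 200 µg of anti-PD-1 (an antibody to the T cell checkpoint receptor PD-1), the third group 25 mg/kg of anti-LIF (an antibody to the cytokine leukemia inhibitory factor), and the combo group both antibodies, each 3 times a week. Each group gave 1 single-cell library in which 3 samples were combined, so no spread between animals could be had and no difference between groups was tested. All intervals are exact at the 95% level and cover counting error only.

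The α and β chains of the classical molecule I-A are encoded by H2-Aa and H2-Ab1, and H2-Eb1 encodes the β chain of I-E. C57BL/6 mice carry a haplotype with no functional I-E α chain, so H2-Eb1 RNA in these mice does not give surface I-E. The invariant chain Cd74 fills the groove and guides new molecules to endosomes, where H2-DM (H2-DMa with H2-DMb1 or H2-DMb2) exchanges its remnant for peptides and H2-O (H2-Oa with H2-Ob) restrains H2-DM. Ciita, the class II transactivator, is recruited to X and Y boxes in the promoters of these genes. Dendritic cells, B cells and macrophages express it constitutively or after activation, and many other cells, tumour cells among them, can turn it on in response to interferon gamma, with IRF1 among the factors that act on its gene.

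The promoters of the chain and loading genes are shown as background, since Ciita is recruited to X and Y boxes in them. A RefSeq table (GRCm38.p6, 250 bases before to 50 bases after each start site) held entries for 6 of the 9 members, with 7 promoters. H2-Ab1, Cd74 and Ciita had none. In capitals are exact matches, on either strand, to the Y box core, which is ATTGG and on the other strand reads CCAAT, and to the X box. The X box pattern left 3 positions free, and its matches here were AGTGACAGATG in H2-Oa, AGTAACTGATG in H2-DMb1 and AGCAACTGATG in H2-Eb1; the positions left free were the third, the fourth and the seventh. The capitals of these motifs do not overlap. The runs are printed in the direction of transcription. Those of H2-DMa are not printed. The H2-DMa promoter starting at 34125268 held 1 Y box core, the one starting at 34122582 held none, and neither held an X box.

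H2-Aa, chr17:34287774-34288073, minus strand: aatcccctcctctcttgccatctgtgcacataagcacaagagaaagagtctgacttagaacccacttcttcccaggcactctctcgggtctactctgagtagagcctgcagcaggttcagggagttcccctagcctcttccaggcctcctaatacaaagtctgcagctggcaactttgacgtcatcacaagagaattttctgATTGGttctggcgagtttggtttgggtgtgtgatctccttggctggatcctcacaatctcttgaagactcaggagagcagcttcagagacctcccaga

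H2-Eb1, chr17:34305617-34305916, plus strand: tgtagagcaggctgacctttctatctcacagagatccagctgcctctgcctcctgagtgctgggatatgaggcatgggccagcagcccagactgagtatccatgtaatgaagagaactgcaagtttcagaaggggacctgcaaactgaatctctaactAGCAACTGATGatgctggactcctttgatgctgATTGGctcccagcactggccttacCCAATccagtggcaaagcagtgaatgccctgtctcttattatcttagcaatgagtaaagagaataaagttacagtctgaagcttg

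H2-DMb1, chr17:34152941-34153240, plus strand: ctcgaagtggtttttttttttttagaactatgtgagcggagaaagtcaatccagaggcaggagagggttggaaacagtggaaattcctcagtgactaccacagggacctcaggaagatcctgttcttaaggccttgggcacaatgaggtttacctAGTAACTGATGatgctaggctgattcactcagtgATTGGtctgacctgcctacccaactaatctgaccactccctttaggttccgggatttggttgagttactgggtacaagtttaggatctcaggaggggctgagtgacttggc

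H2-DMb2, chr17:34144999-34145298, plus strand: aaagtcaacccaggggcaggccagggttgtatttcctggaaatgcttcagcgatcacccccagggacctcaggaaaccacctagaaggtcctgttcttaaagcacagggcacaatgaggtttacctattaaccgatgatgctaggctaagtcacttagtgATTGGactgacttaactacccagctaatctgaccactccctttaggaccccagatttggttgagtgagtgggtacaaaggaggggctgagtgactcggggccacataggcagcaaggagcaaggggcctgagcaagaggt

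H2-Oa, chr17:34092129-34092428, plus strand: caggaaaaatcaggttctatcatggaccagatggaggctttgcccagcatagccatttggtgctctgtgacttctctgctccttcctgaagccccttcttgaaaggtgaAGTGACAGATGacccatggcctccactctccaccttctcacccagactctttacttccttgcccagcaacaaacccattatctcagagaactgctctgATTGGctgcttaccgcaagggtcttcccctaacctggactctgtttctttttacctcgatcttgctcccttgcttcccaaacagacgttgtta

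The X box letters stood in 3 of the 7 promoters, those of H2-Eb1, H2-DMb1 and H2-Oa, and in 0.968% of the 32851 promoters of the table. The Y box core stood in 6 of the 7 and in 37.4% of all promoters. Both stood in 3 of the 7 and in 0.387% of all. In those 3 promoters the X box began 92, 95 and 141 bases before the start site (H2-Eb1, H2-DMb1 and H2-Oa) and the Y box core 59, 61 and 43 bases before it, downstream of the X box in each. H2-Eb1 held a further Y box core on the other strand, 35 bases before its start. H2-DMb2, which lies next to H2-DMb1 and differs from it in the cells that use it, held the Y box core without an exact X box. The members other than Cd74 and Ciita lie within the major histocompatibility complex of chromosome 17, in GENCODE M21 coordinates of GRCm38 from H2-Oa at 34092340 to H2-Eb1 at 34316674. Ciita lies on chromosome 16 (10480059 to 10528418), and Cd74 on chromosome 18. H2-DMa overlaps Brd2, H2-Eb1 overlaps Gm20513, H2-Oa overlaps BC051537 and Ciita overlaps Dexi, all on the opposite strand. H2-DMa also overlaps CR974462.3 on the same strand and CR974462.4 on the opposite one. These had 0 UMIs in C1q macrophages, type 1 and type 2 dendritic cells and cancer-like cells, and at most 1 and 8 UMIs in the T cells of a library. The strand setting of the counting is not given in the sources used here, so these counts are uncertain where genes overlap. The longest coding transcripts of H2-DMb1 and H2-DMb2 were 94.7% identical over aligned bases, with a shared exact run of 221 bases, but no shared run above 23 bases in their last 300 bases, the end that a 3′ kit reads.

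The libraries held 15046 to 20393 barcodes and 57720774 to 111164731 UMIs, and 14014 to 18640 cells were kept, with median UMIs of 1674.5 to 2288. Cells were assigned by counting distinct marker genes with a UMI. No member was a marker, and each class name below means cells that resemble that type by these markers. Between 66.9% and 72.3% of the kept cells fell in a class, and 3.95% to 9.76% carried markers of 2 lineages and were left out. Pairs of libraries shared 277 to 392 barcodes. Removal of debris and dead cells was optional in the protocol, and the labels do not say for which libraries it was done. The control library stood apart in cell makeup: T cells made up 33.4% of its kept cells and 6.64% to 10.6% of the others, and C1q macrophages 1.98% against 9.81% to 16.1%. It held 9 resident macrophages, 4 Retnla macrophages, 37 type 2 dendritic cells, 40 mature dendritic cells and 21 B cells, under the 50 cells set for a ratio.

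Conventional dendritic cells had the highest levels of the chain genes, Retnla and C1q macrophages came next, and endothelial cells were far lower. In type 2 dendritic cells, H2-Ab1 was at 18167, 22911, 21485 and 20884 UMIs per 1000000 UMIs of the class (CPM). Here and below, values are listed in the order of control, then anti-PD-1, then anti-LIF, then combo. In type 1 dendritic cells, which specialise in cross-presentation, it was at 19379, 16486, 17462 and 18540 CPM. The ranges of these 2 kinds overlapped. Retnla macrophages, present in 3 libraries, had 10899 to 14703 CPM of H2-Ab1, below both dendritic kinds without overlap, and C1q macrophages had 7386 to 12218 CPM. Mature dendritic cells (2155 to 8810 CPM), monocytes (3106 to 6061), resident macrophages (2898 to 4077) and B cells (1897 to 8815) followed, with ranges that overlapped from each to the next. The B cell range rested on the 21 control cells at 8815 CPM, the other 3 libraries lying between 1897 and 2240 CPM. Blood endothelial cells, at 319 to 879 CPM, lay below all of these.

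T cells and neutrophils, taken as cells that should lack class II RNA, gave the floor. T cells had 211 to 539 CPM of H2-Ab1 (66.6 to 127 in those without any marker of another lineage). Neutrophils had 228 to 795 CPM, so the endothelial range overlapped that of neutrophils and T cells. Fibroblasts, which were not taken as such cells, had 108 to 327 CPM. The chain UMIs (H2-Aa, H2-Ab1 and H2-Eb1 together) of control T cells were held by few cells: the 10% of cells with the most held 93.4% of them and 27.1% of all UMIs. When every cell was thinned to 1000 UMIs, T cells had 0.74, 0.71, 0.76 and 0.56 chain UMIs per cell, neutrophils 1.48, 1.02, 1.25 and 0.71 and blood endothelial cells 2.33, 1.81, 0.78 and 0.99. The endothelial value was above both in the control, anti-PD-1 and combo libraries. In the anti-LIF library it was close to that of T cells and below that of neutrophils.

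**Figure D1:**
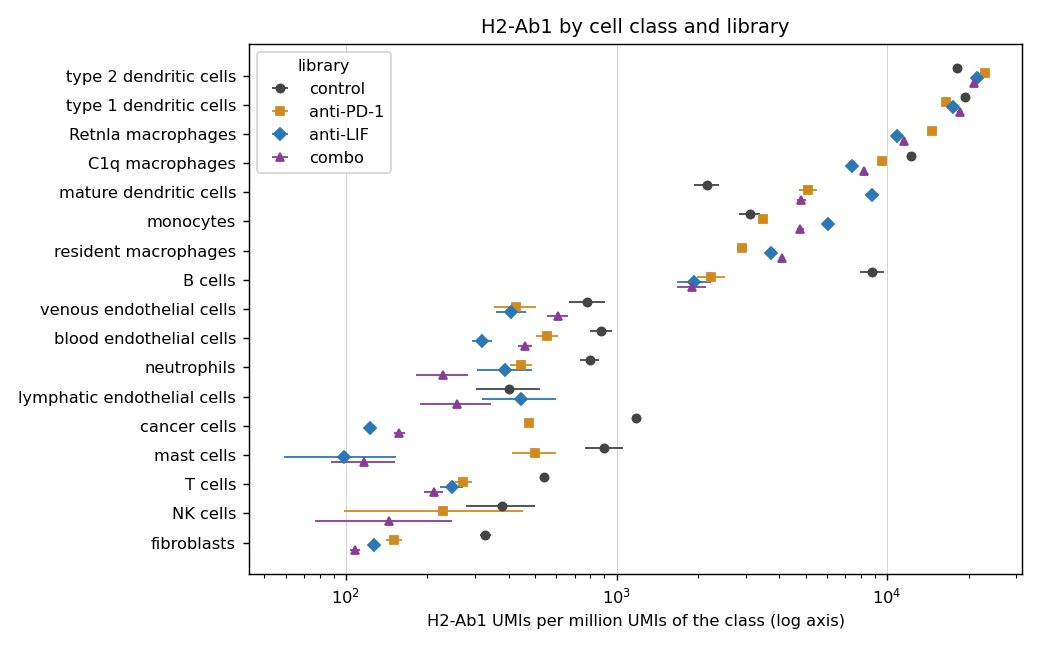
H2-Ab1 CPM (log axis) in each cell class, 1 point per library of at least 20 cells, with exact Poisson intervals for counting error. Type 1 and type 2 dendritic cells lie between 16486 and 22911 in the 4 libraries; cancer cells spread from 123 in the anti-LIF library to 1177 in the control library.

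Cd74 followed this order less closely. It was at 5150 to 7780 CPM in type 2 dendritic cells, 5188 to 6706 in Retnla macrophages, 5246 to 5640 in type 1 dendritic cells, 3530 to 4643 in C1q macrophages, 1253 to 2727 in monocytes and 206 to 524 in blood endothelial cells. Blood endothelial cells had more Cd74 relative to H2-Aa than type 2 dendritic cells, with 0.66 to 0.77 Cd74 UMIs per H2-Aa UMI against 0.30 to 0.40. The 107 plasma cells of the control library, which have lost most class II, still had 2.17 Cd74 UMIs per H2-Aa UMI (1.82 to 2.60). Ciita was highest in the dendritic kinds, at 77.0, 165, 168 and 150 CPM in type 2 and 52.5, 150, 113 and 128 CPM in type 1 dendritic cells, where the 37 and 80 control cells were the lowest. Retnla macrophages had 67.2 to 72.7 CPM. C1q macrophages had 38.7 to 44.7 CPM of Ciita in the 4 libraries, a narrow range, and T cells 2.08 to 3.03.

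Mature dendritic cells, which have taken up antigen and migrate, had a different balance between the chain genes from the other dendritic kinds. Their H2-Ab1 UMIs per H2-Aa UMI were 0.54, 0.62, 0.82 and 0.64, below the 1.12 to 1.18 of type 1 and the 1.07 to 1.11 of type 2 dendritic cells in every library. These are ratios of UMIs at the 3′ end, compared between classes and not between molecules. C1q macrophages had 0.90 to 0.97. Resident macrophages had 0.95, 0.81 and 0.83 with anti-PD-1, anti-LIF and combo, so those of the anti-LIF library were level with mature dendritic cells. Mature dendritic cells also had little Ciita (6.18, 14.4, 62.5 and 17.8 CPM, from 1, 2, 22 and 9 UMIs), except in the anti-LIF library.

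The 2 H2-DM β genes divided the cells. H2-DMb1 was found in macrophages and dendritic cells, with 401 to 610 CPM in Retnla macrophages, 207 to 295 in C1q macrophages, 396 to 497 in type 1 and 448 to 733 in type 2 dendritic cells. H2-DMb2 was highest in type 2 dendritic cells (192, 425, 358 and 375 CPM) and B cells (613, 273, 303 and 330 CPM) and was at only 17.3 to 24.0 CPM in C1q macrophages. B cells had between 5.40 and 11.3 H2-DMb2 UMIs per H2-DMb1 UMI in the 4 libraries, though on 3 to 7 H2-DMb1 UMIs a library. Mature dendritic cells had 1.49 to 2.50 in the 3 libraries with enough UMIs, type 2 dendritic cells 0.36 to 0.95, type 1 0.33 to 0.48, and C1q macrophages 0.059 to 0.116. The B cell values lay above all of the others and the C1q macrophage values below all dendritic values.

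H2-Oa was nearly restricted to B and dendritic cells. It was at 136, 48.2, 10.1 and 52.5 CPM in B cells (6, 6, 1 and 7 UMIs), 50.4, 48.4, 23.7 and 52.0 in type 1 dendritic cells and 38.5, 114, 19.1 and 46.5 in type 2. The anti-LIF library was lowest in all 3 classes, on 1, 4 and 11 UMIs. C1q macrophages had 0.60 to 2.89 CPM, below T cells at 4.40 to 5.98, and cancer-like cells had 2 UMIs in all 4 libraries together.

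**Figure D2:**
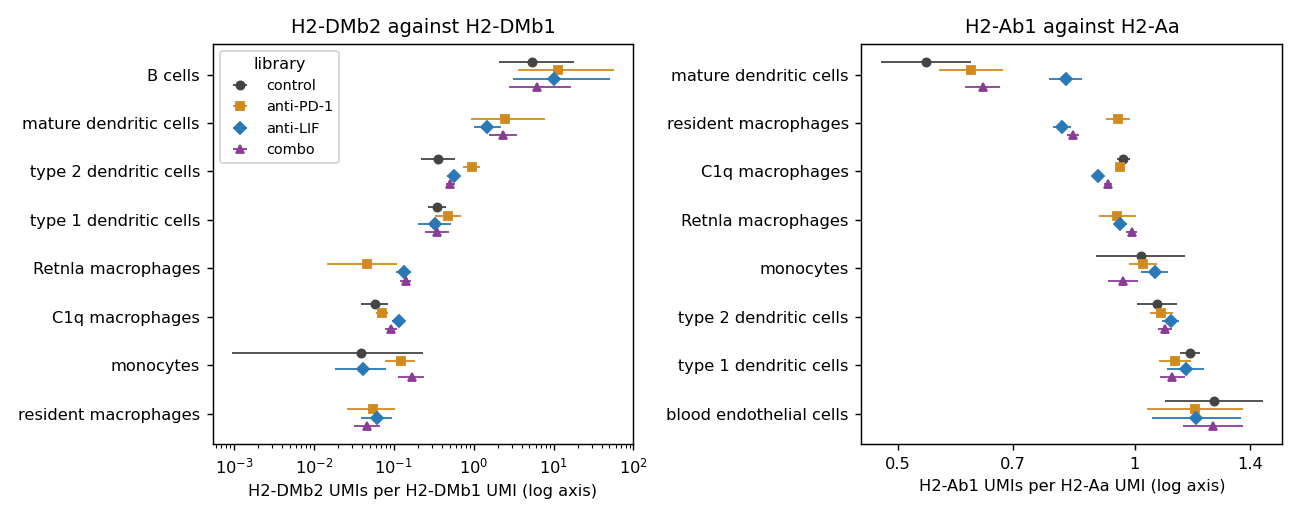
UMIs of one gene per UMI of another (log axes) by cell class and library, with exact intervals: H2-DMb2 per H2-DMb1 on the left, H2-Ab1 per H2-Aa on the right. B cells lie between 5.40 and 11.3 on the left. Mature dendritic cells at 0.54 to 0.82 lie lowest on the right, except in the anti-LIF library, where resident macrophages are level with them at 0.81.

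Against the control library, the clearest difference was in cancer-like cells, whose class II RNA was far lower after each antibody and lowest with anti-LIF. These were cells with at least 2 of Krt18, Krt8, Krt7, Krt19, Ereg and Lif and none of Xist and Ptprc (4770, 2308, 1669 and 1435 cells). H2-Aa was at 1110, 442, 121 and 144 CPM. H2-Ab1 was at 1177, 475, 123 and 158 CPM, and at 205 and 252 CPM in the last 2 as a mean over cells. The 4 libraries did not overlap in their counting intervals for either gene, the control being highest and anti-LIF lowest. H2-Eb1 (911, 371, 91.8 and 110 CPM) and Cd74 (484, 206, 55.5 and 64.4 CPM) kept the same order.

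The loading genes and the transactivator were lower too. H2-DMb1 was at 84.6, 40.5, 10.1 and 12.96 CPM and H2-DMb2 at 16.4, 2.71, 0.42 and 1.02 CPM. Ciita was at 11.5, 6.43, 2.02 and 1.72 CPM, from 563, 145, 29 and 22 UMIs. H2-DMa did not follow in the anti-PD-1 library, with 36.0, 37.9, 7.58 and 4.92 CPM. H2-Ab1 was 2.48-fold lower than control with anti-PD-1 (log2 ratio -1.31, -1.34 to -1.28), 9.60-fold lower with anti-LIF (-3.26, -3.33 to -3.19) and 7.46-fold lower with combo (-2.90, -2.97 to -2.84).

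Of the 8 members measured (at least 20 UMIs in both libraries together), 6 were at least 2-fold lower with anti-PD-1, where 3.29% of all genes measured in these cells were. All 8 measured were with anti-LIF and all 8 with combo, against 6.29% and 5.35% of genes. Among these 8, H2-DMb2 had 803, 61, 6 and 13 UMIs in the 4 libraries. With anti-LIF and combo it passed the minimum only through the control, and in the comparisons with anti-PD-1 below only through the anti-PD-1 library. The 3 comparisons share the control cells. The median log2 ratio of the members was -1.26, -3.16 and -2.90, beside 0.18, 0.21 and 0.21 for all genes. Set directly against anti-PD-1, the median was -1.98 with anti-LIF and -1.66 with combo, and all 8 measured members were at least 2-fold lower in both, against 3.39% and 3.21% of genes. Combo lay 0.25 above anti-LIF, with 0 of 7 past 2-fold, where 2.19% of genes were lower and 1.77% higher.

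**Figure D3:**
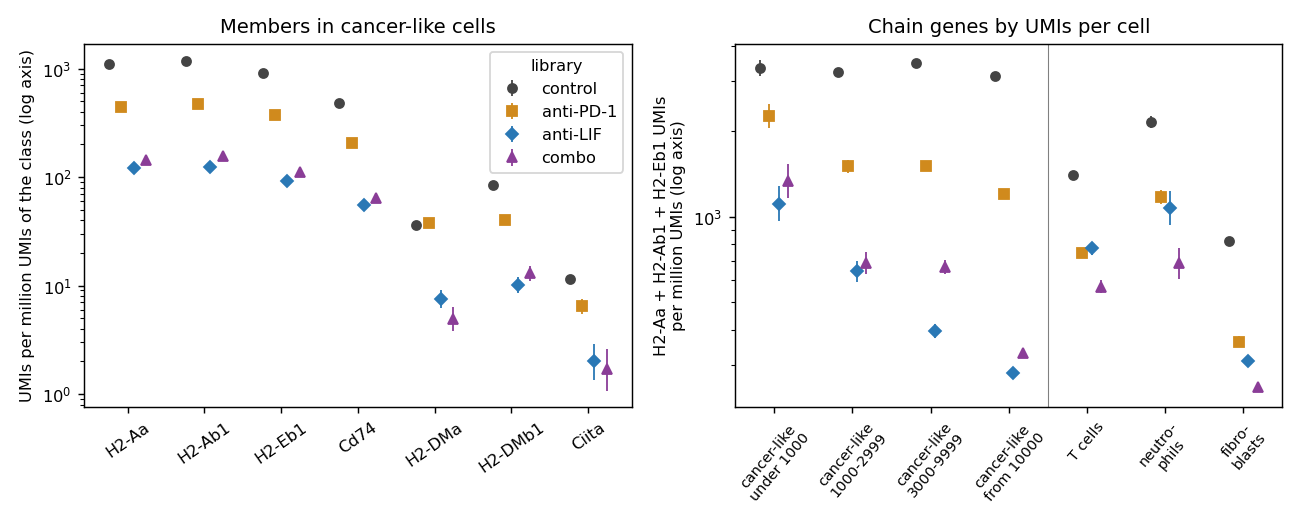
Left, CPM (log axis) of 7 members in cancer-like cells by library; right, the summed chain genes in cancer-like cells grouped by their UMIs and in T cells, neutrophils and fibroblasts, with exact Poisson intervals. Control cancer-like cells stay between 3127 and 3477 at every depth, while those of the anti-LIF library decline from 1112 to 281.

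Markers of presenting cells were low in these cells. Cancer-like cells of the control library had 26.1 CPM over the 8 phagocyte markers and 17.98 CPM over the 6 C1q macrophage markers, against 90.1 to 98.0 and 81.2 to 123 CPM in the treated libraries, so these markers moved the opposite way to class II. All 8 and all 6 had a UMI in every library. Of the 8 B cell markers, summed at 4.14 to 4.85 CPM, Fcmr was at 0 in all 4 libraries. The 6 type 1 dendritic markers summed to 74.5, 74.7, 42.1 and 53.1 CPM, mostly Cadm1, with Xcr1 at 0 in all 4 libraries. Mature dendritic markers, 7 in number, summed to 82.3, 66.6, 59.2 and 66.9 CPM. Both sums were lowest with anti-LIF, as class II was. The type 2 dendritic sum was instead lowest in the control, at 13.9 CPM. The part of cells with these dendritic markers, or with the phagocyte markers, in the class II difference was not tested. In cells without any UMI of C1qa, C1qb, C1qc, Apoe or Lyz2, the chain genes summed to 3205, 1299, 303 and 471 CPM, beside 3198, 1289, 336 and 412 in all cancer-like cells.

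The level varied little with depth in the control library. Its cancer-like cells under 1000 UMIs had 3339 CPM of the chain genes and those from 10000 UMIs had 3127 CPM. In the anti-LIF library the same groups had 1112 and 281 CPM, and in the combo library 1342 and 330. Thinned to 1000 UMIs, 74.9%, 47.5%, 21.8% and 24.4% of cancer-like cells had a chain UMI, beside 21.6%, 33.3%, 24.1% and 26.2% of T cells and 49.1%, 38.8%, 41.7% and 43.5% of neutrophils. Unthinned, the cancer-like shares were 89.1%, 76.2%, 54.2% and 60.0% at median depths of 9032, 6089, 4367 and 4519 UMIs, and the T cell shares 31.1%, 44.3%, 32.4% and 39.9% at 1606, 1317, 1258 and 1595. The thinned shares of the anti-LIF and combo libraries were no higher than those of T cells, the level that a share of cells with a UMI has in cells that should lack the gene. The shares with at least 5 chain UMIs were 29.5%, 9.01%, 1.90% and 3.69% in cancer-like cells and 2.75%, 2.24%, 1.98% and 1.68% in T cells. By either count, the control and anti-PD-1 shares were above those of both reference classes. With at least 5 chain UMIs, the combo share (2.7% to 4.9%) was above that of T cells (0.983% to 2.68%) as well. The combo share was also above that of neutrophils, at 0.926%, but within their interval of 0.0234% to 5.05%. The anti-LIF share with at least 5 was below that of T cells and that of neutrophils, at 3.33%.

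Among cancer-like cells from 3000 UMIs, those with a Ciita UMI had more chain RNA in every library: 4598 against 2951 CPM in the control, 3262 against 1048 with anti-PD-1, 1676 against 275 with anti-LIF and 2617 against 340 with combo. These were 421, 108, 19 and 13 cells, at median UMIs of 13709 to 18322, against 9645.5 to 11897.5 in cells without. Cells with Top2a or Mki67, genes of dividing cells, had 3239 CPM against 3138 without in the control library and 1257 against 1301 with anti-PD-1. They had 229 against 556 with anti-LIF and 253 against 674 with combo. Cells with these genes were deeper, at median UMIs of 14660, 13531.5, 11782 and 14400.5 against 10123.5, 7590, 7322.5 and 9686 without. The part of depth in this was not tested. Of the class II chain UMIs, the 10% of cancer-like cells with the most held 41.4% in the control, 63.3% with anti-PD-1, and 75.4% and 75.5% in the others, while the same cells held 13.2% to 20.5% of all UMIs.

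Genes of a list of 33 (2 other class II genes, transcription, peptide making, turnover, costimulation and the receptors Cd4 and Lag3) were counted in the same way. In cancer-like cells, Irf1 was at 590 CPM in control and 173 and 157 CPM with anti-LIF and combo. With anti-PD-1, 1 of 28 measured list genes was at least 2-fold lower (H2-Eb2) and 4 were higher (Ctss, Spi1, Cd86 and Ctsd), where 3.29% and 6.37% of all genes were. With anti-LIF, 3 of 27 were lower (H2-Eb2 and Irf1 among them) and 3 higher (Cd86, Ctss and Ctsd), where 6.29% and 10.4% of all genes were. With combo 3 of 27 were lower (H2-Eb2 and Irf1 among them) and 2 higher (Cd86 and Ctss), where 5.35% and 7.5% of all genes were. Ctss, the protease that trims the invariant chain and is abundant in phagocytes, was at 6.81, 28.8, 21.5 and 19.8 CPM, in the direction of the phagocyte markers above; their part in it was not tested.

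C1q macrophages had somewhat less class II after treatment. H2-Aa was at 12637, 10026, 8218 and 8853 CPM and H2-Ab1 at 12218, 9592, 7386 and 8188 CPM. H2-Eb1 was at 9853, 7564, 6081 and 6264 CPM and Cd74 at 4643, 4404, 3530 and 3674 CPM. The control cells were highest for all 4 genes. The 6 type 1 dendritic markers in these cells summed to 220, 140, 36.0 and 49.4 CPM (5, 6, 5 and 6 with a UMI), in the same order of libraries, with Cadm1 as the most abundant at 172, 117, 23.6 and 38.6 CPM. The 6 type 2 dendritic markers went the other way, at 54.3, 108, 161 and 161 CPM. The part of either in the difference was not tested. H2-Ab1 was 1.27-, 1.65- and 1.49-fold lower with anti-PD-1, anti-LIF and combo. No member measured was at least 2-fold lower in any of the 3 comparisons, where 5.32%, 7.35% and 7.87% of all genes were, and 1 (H2-DMa) was at least 2-fold higher with anti-PD-1, where 6.93% were. None was higher with anti-LIF or combo, where 8.61% and 7.64% were.

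The median of the members was -0.23, -0.45 and -0.30, beside 0.12, 0.12 and 0.08 for all genes. It was -0.67, -1.33 and -1.13 in C1q macrophages gated more strictly, with no marker of another lineage (56 control cells). Thinned to 1000 UMIs, 88.9% of control C1q macrophages had at least 5 chain UMIs, and 71.6%, 62.5% and 64.6% of the others. Ciita was at 38.7, 44.7, 40.0 and 43.0 CPM in these cells, with overlapping intervals. Of 31 list genes measured, 0, 1 and 3 were at least 2-fold lower and 3, 5 and 5 higher. H2-Ob, the partner of H2-Oa, was at 17.3 CPM in control and 5.63 and 5.39 CPM with anti-LIF and combo. Ctsd, a lysosomal protease, was at 86.7, 386, 741 and 389 CPM and Ctsl at 449 CPM in control against 939 and 1011 with anti-LIF and combo. The Ctsd difference was not particular to C1q macrophages. Against control, Ctsd was at least 2-fold higher with each treatment in monocytes, blood endothelial cells, T cells, neutrophils and mast cells too. Irf1 was at least 2-fold lower with combo, at 173 CPM against 421 CPM in control.

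Monocytes went the other way. H2-Aa was at 3054, 3393, 5722 and 4941 CPM and Cd74 at 1253, 1506, 2727 and 1999 CPM in 66, 376, 315 and 265 cells. H2-Eb1 was at 1338, 2110, 3293 and 2749 CPM. The control was lowest and anti-LIF highest for each. H2-Eb1 was 2.46-fold higher with anti-LIF (log2 ratio 1.30, 1.09 to 1.51). Counted over members, 1 of 8, 3 of 7 and 2 of 8 were at least 2-fold higher, where 17.8%, 13.3% and 12.3% of all genes measured were, with none 2-fold lower, where 6.64%, 5.96% and 6.99% were. The anti-PD-1 call and 1 of the combo calls were H2-DMb2, which had 1 UMI in control monocytes against 26 and 35 and was measured only through the treated libraries. The other calls were H2-DMa, H2-Eb1 and Cd74 with anti-LIF and H2-Eb1 with combo. H2-DMa, with 12 UMIs in control against 233, passed the minimum only through the anti-LIF library. The medians were 0.21, 0.96 and 0.64, beside 0.09, 0.03 and 0.03 for all genes.

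The control value rested on few cells. Of the 1149 chain UMIs of its 66 monocytes, 10 cells held 83.6%, and the median cell had 1. The type 2 dendritic markers summed to 392 CPM in control monocytes and 190 to 297 CPM in the others, with Cd209a at 261 CPM, and the C1q macrophage markers to 405 CPM against 914 to 1297 CPM; their part in the difference was not tested. Thinned to 1000 UMIs, 28.1% (17.6% to 40.8%), 33.3%, 49.8% and 43.8% of monocytes had at least 5 chain UMIs. Irf1 was at 1064 CPM in control and 435, 436 and 289 CPM in the others, opposite in direction to the class II genes. In all, 2, 3 and 5 of 24, 24 and 25 list genes measured were at least 2-fold lower and 4, 3 and 3 higher, Ctsd, Cd80 and Ifngr2 among those higher in each.

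Blood endothelial cells had less class II RNA after treatment. H2-Ab1 was at 879, 554, 319 and 458 CPM and Cd74 at 524, 305, 206 and 239 CPM in 171, 338, 808 and 944 cells. The control was highest and anti-LIF lowest. H2-DMb1 was at 62.5, 25.0, 19.6 and 22.8 CPM. At least 2-fold lower were 1 of 6, 5 of 7 and 3 of 7 members measured, against 2.81%, 3.15% and 2.90% of all genes, and 1, 2 and 0 were higher (H2-DMa with anti-PD-1, H2-DMa and Ciita with anti-LIF), against 6.69%, 9.42% and 9.44%. These higher calls rest on 5 H2-DMa and 3 Ciita UMIs in the control, passed the minimum of UMIs only through the treated libraries, and with anti-LIF were both lost with 1 count added or when centred on all genes.

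The endothelial medians were -0.62, -1.39 and -0.94, beside 0.07, 0.08 and 0.09 for all genes. T cells, fibroblasts and neutrophils were lower as well. Their medians were -0.87, -0.54 and -1.21 in T cells, -1.20, -1.36 and -1.77 in fibroblasts and -0.75, -0.89 and -1.65 in neutrophils. The endothelial medians were nearer to 0 than those of all 3 classes with anti-PD-1 and with combo. With anti-LIF the endothelial median was slightly beyond that of fibroblasts and further beyond those of neutrophils and T cells. Those of cancer-like cells with anti-LIF and combo, at -3.16 and -2.90, were beyond these 3 classes. Mast cells (60, 111, 65 and 146 cells) were as low as cancer-like cells, with medians of -1.10, -3.28 and -2.95 over 4 measured members, from 902, 499, 98.0 and 117 CPM of H2-Ab1, and they had no Ciita UMI in any library. Thinned to 1000 UMIs they had 2.12, 1.77, 0.37 and 0.31 chain UMIs per cell, beside 3.33, 1.43, 0.48 and 0.60 in cancer-like cells. What class II RNA free in the suspension adds to these low levels was not tested. The phagocyte markers in endothelial cells summed to 80.6 CPM in control (7 of 8 with a UMI, Adgre1 at 0) and 270 to 410 CPM in the others, opposite in direction to class II. Venous endothelial cells, a subset of them, had medians of -0.75, -0.98 and -0.52. In the endothelial list genes, Ctsd was at least 2-fold higher in each comparison, as were Ctss with anti-PD-1 and Rfx5 with combo, and Rfxap (anti-PD-1) and Rfxank and Irf8 (combo) were lower, out of 21, 22 and 24 measured.

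**Figure D4:**
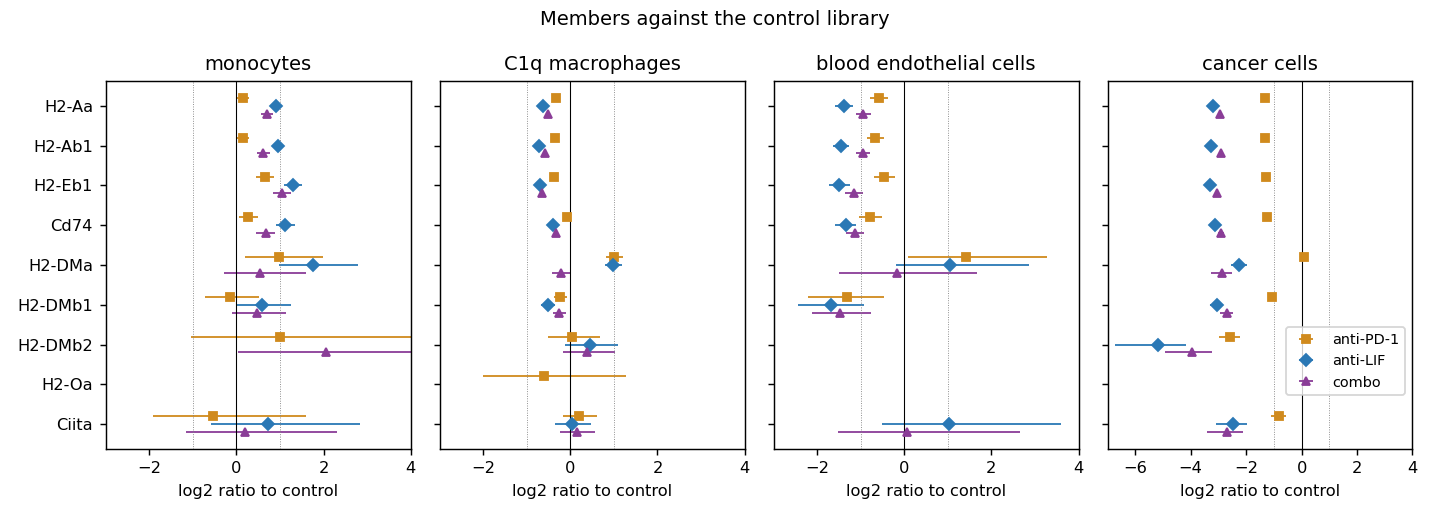
Log2 ratio of each member to the control library in 4 cell classes, with exact conditional intervals and dotted lines at 2-fold, for members with at least 20 UMIs in both libraries together; the horizontal axis of cancer cells is wider, and the H2-DMb2 intervals of monocytes run past it at the right. The chain genes and Cd74 lie right of 0 in monocytes and left of 0 in the other 3 classes.

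Resident macrophages could be compared only among the treated libraries. H2-Aa was at 3042, 4592 and 4885 CPM with anti-PD-1, anti-LIF and combo (323, 576 and 857 cells), H2-Eb1 at 2009, 2890 and 3009 CPM and Ciita at 14.3, 30.5 and 29.0 CPM. The anti-PD-1 library was lowest for each. The 6 type 2 dendritic markers, all with a UMI, summed to 288, 647 and 894 CPM in the same cells. The sum was lowest with anti-PD-1, as class II was. Most of it was Clec10a, at 221, 524 and 794 CPM, which also served as a marker of Retnla macrophages. The part of these markers in the difference was not tested. The member median was 0.56 for anti-LIF and 0.53 for combo against anti-PD-1, and -0.01 for combo against anti-LIF. Against anti-PD-1, 1 of 8 members (Ciita) was at least 2-fold higher with anti-LIF, where 2.63% of all genes were, and 0 with combo, where 3.55% were. None was 2-fold lower there, where 2.4% and 2.55% of genes were, and against anti-LIF 1 of 8 (H2-DMa) was lower with combo, where 1.97% were, and 0 higher, where 2.03% were. In mature dendritic cells, combo was below anti-LIF for all 8 measured members, with a median of -0.78, on 103 and 84 cells. H2-Ab1 was at 4818 against 8810 CPM. The 8 phagocyte markers summed to 124, 417, 1120 and 778 CPM in mature dendritic cells (4, 7, 8 and 8 with a UMI, Lyz2 at 0 in control), highest with anti-LIF as class II was; their part in it was not tested. There, 2 of the 8 (H2-DMa and Ciita) were at least 2-fold lower, where 4.41% of all genes were, and 0 higher, where 4.41% were. H2-DMa had 15 UMIs with combo against 63 with anti-LIF, and the Ciita UMIs were given above. Both passed the minimum of UMIs only through the anti-LIF library.

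Type 2 dendritic cells and Retnla macrophages differed little between the treated libraries in their chain genes. In type 2 dendritic cells (81, 141 and 199 cells with anti-PD-1, anti-LIF and combo), H2-Eb1 was at 16200, 14778 and 13333 CPM and Cd74 at 7683, 7780 and 7372 CPM, beside 12239 and 5150 CPM in the 37 control cells. The member median was -0.15 for combo against anti-PD-1, -0.09 for anti-LIF against anti-PD-1 and -0.04 for combo against anti-LIF. The exception was H2-Oa, the brake on H2-DM, whose levels in the treated libraries were given above. It was 5.80-fold lower with anti-LIF than with anti-PD-1 (log2 ratio -2.54, -3.70 to -1.57), from 11 and 36 UMIs. It passed the minimum of UMIs there only through the anti-PD-1 library. It was the 1 of 9 members at least 2-fold lower in that comparison, where 3.09% of genes were, with 0 higher, where 4.63% were. Against anti-PD-1, H2-Oa was also the 1 of 9 lower with combo (4.2% of genes), with 0 higher (7.11%). Combo against anti-LIF had H2-DMa lower (2.63%) and H2-Oa higher (2.96%), the latter with 46 against 11 UMIs and measured only through the combo library. In Retnla macrophages, H2-Aa was at 15480, 11369 and 11620 CPM, where anti-PD-1 rests on 35 cells. Combo against anti-LIF gave a median of 0.02, with 1 of 8 members (H2-DMa) at least 2-fold lower, where 1.89% of genes were, and 0 higher, where 3.11% were.

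H2-DMa had a pattern between libraries that its partner gene did not. In C1q macrophages it was at 146, 293, 289 and 125 CPM, where H2-DMb1 was at 295, 251, 207 and 247. In type 1 dendritic cells H2-DMa was at 178, 612, 522 and 214 CPM and in type 2 at 177, 479, 703 and 306 CPM. Retnla macrophages had 255 to 604 CPM of H2-DMa, within the range of the dendritic kinds. The anti-PD-1 and anti-LIF libraries were both above control and combo in 8 of 12 classes with 20 cells in every library for H2-DMa and in 0 of 12 for H2-DMb1. T cells showed it as well, at 12.2, 15.9, 16.9 and 9.72 CPM, from 191, 46, 28 and 26 UMIs. The count of classes goes by the order of the CPM values alone, without intervals. It includes classes with few H2-DMa UMIs, such as blood endothelial cells with 5, 23, 37 and 24. Brd2, which overlaps H2-DMa on the other strand, was at 246, 216, 230 and 218 CPM in C1q macrophages and did not follow it, and the other genes counted over H2-DMa had 0 UMIs there. The labels name a pair of sequencing instruments without saying which library went on which, so a part of the instrument in this pattern cannot be told apart.

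**Figure D5:**
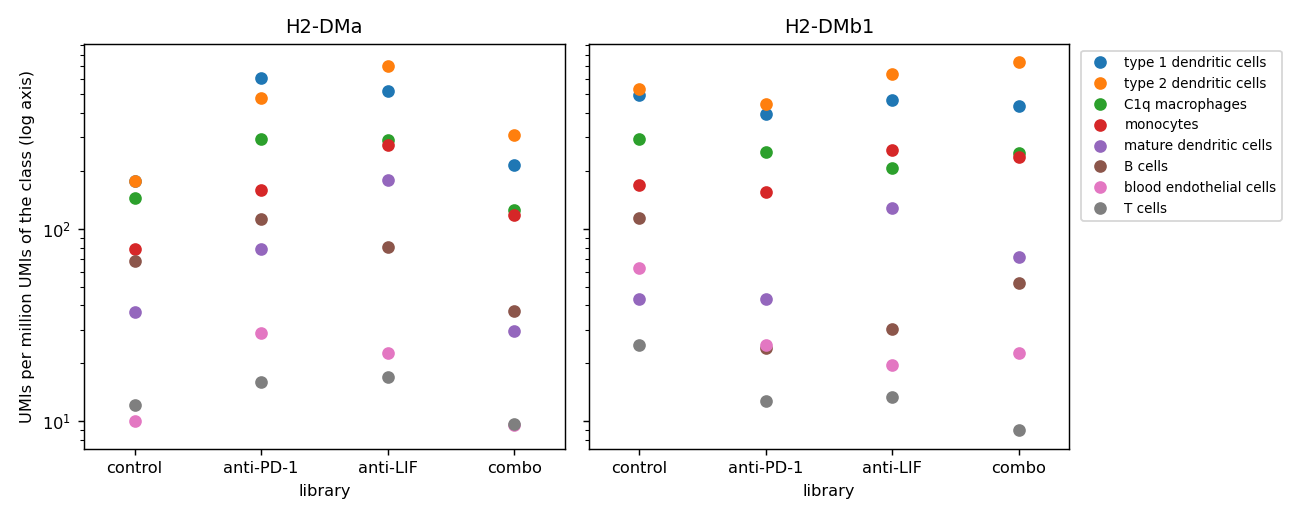
CPM (log axis) of H2-DMa and H2-DMb1 by library in 8 cell classes. H2-DMa is higher in the anti-PD-1 and anti-LIF libraries than in control and combo in each class drawn, whereas H2-DMb1 shows this in none.

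The genes most like the class II core across cells were named by Pearson's r with the mean log2(CPM + 10) of H2-Aa, H2-Ab1, H2-Eb1 and Cd74, over 46 sums of a class in a library (15 classes, at least 50 cells each) and 7536 genes reaching 50 CPM. Among members outside the core, r was 0.95 for H2-DMb1, 0.94 for H2-DMa, 0.92 for Ciita, 0.75 for H2-DMb2 and 0.49 for H2-Oa. The 8 other genes with the highest r were Fgd2 (0.92), Tbc1d9 (0.90), Cd83 (0.90), Gm6377 (0.89), Pld4 (0.89), Ly86 (0.88), Ifi30 (0.88) and Cd86 (0.87). Ifi30 is a thiol reductase that unfolds antigens in lysosomes, and Cd83 and Cd86 are surface proteins of activated presenting cells. The sums share libraries and classes, so r is a description over these 46 points.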

How the data were processed

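The deposited matrices hold raw UMI counts per gene and barcode, with no normalization per the file headers. Barcode and gene names came from the deposited lists. Per the labels' protocols, libraries were made with a SeekOne 3′ kit from 3 combined samples a group. The submitters' processing notes name mm10 and Seurat 4.0.3 without a role; aligner, counter and cell calling are not given in the sources used here.

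Kept barcodes had 200 or more genes and mitochondrial UMIs of no more than 20%. Classes needed 2 to 4 distinct markers with a UMI; these thresholds were set after seeing the marker distributions, and no doublet caller was run, cells with markers of 2 lineages being left out instead. Counts were summed per class and library. Log2 ratios of CPM had 0.5 counts added and needed 50 cells in both libraries. With 1 library a group no test was made; a gene at or past 2-fold is counted as higher or lower. Intervals are exact (Poisson, Clopper-Pearson, conditional). The ratio calculation was tested on simulated data. Members and lists were chosen with earlier results of these data known. All 9 members are named, with list genes at or past 2-fold, up to 6 a class, and the 8 genes of highest likeness. The values of 1 list gene are not reported here. Of the 32285 gene identifiers, 32158 were found in GENCODE M21. Python 3.11.15, NumPy 2.4.6, SciPy 1.17.1 and pandas 2.3.3 were used.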

Additional observations from a re-analysis of the deposited data

Results flagged for a closer look

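The members moved one way in monocytes and the other way in 3 other classes against the same control library. With anti-PD-1 their median log2 ratio was 0.21 in monocytes, against -0.23 in C1q macrophages, -0.62 in blood endothelial cells and -1.26 in cancer-like cells. With anti-LIF it was 0.96 in monocytes, against -0.45, -1.39 and -3.16. With combo it was 0.64 in monocytes, against -0.30, -0.94 and -2.90. The difference between classes was not tested, since each group is 1 library, and the 3 comparisons share the control cells, among them 66 monocytes.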

How the results depend on the processing

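Alternatives were run for the member medians of monocytes, C1q macrophages, blood endothelial cells and cancer-like cells against control, and none of these turned direction; the medians of other classes and between treated libraries were not rerun. Thinned to 1000 UMIs, the medians with anti-PD-1, anti-LIF and combo were 0.80, 1.46 and 0.86 in monocytes, -0.40, -0.75 and -0.59 in C1q macrophages and -1.08, -2.78 and -2.49 in cancer-like cells; in blood endothelial cells they were -0.40 with anti-PD-1 and -1.19 with combo. As a mean over cells they were 0.51, 1.18 and 0.87 in monocytes, -0.44, -0.76 and -0.62 in C1q macrophages, -1.07, -2.59 and -2.25 in cancer-like cells, and -0.37 in blood endothelial cells with anti-PD-1. Centred on all genes, they were -0.58 in C1q macrophages with anti-LIF and -1.44, -3.37 and -3.11 in cancer-like cells. With at most 10% mitochondrial UMIs, cancer-like cells gave -1.42 with anti-PD-1 and -3.33 with anti-LIF.

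The stricter gate with no marker of another lineage gave -0.67, -1.33 and -1.13 in C1q macrophages. One that allowed at most 1 such marker, chosen after seeing the data, gave -0.52, -0.93 and -0.76 there, -1.56 with anti-PD-1 and -3.61 with anti-LIF in cancer-like cells, and -0.97 with anti-PD-1 and -1.10 with combo in blood endothelial cells. The first was not run in monocytes, blood endothelial cells and cancer-like cells, and the second not in monocytes, for want of 50 cells.

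Counts of members past 2-fold moved as follows. In monocytes with anti-PD-1 the count went from 1 to 3 when thinned, to 2 as a mean over cells and to 0 with 1 count added or when centred; with anti-LIF it went from 3 to 6 when thinned or as a mean over cells and to 5 at 10% mitochondrial UMIs. In C1q macrophages with anti-PD-1 it went from 1 to 0 when thinned, centred, as a mean over cells or with at most 1 other marker. With anti-LIF it went from 0 to 1 when thinned or with no minimum of UMIs, to 2 as a mean over cells, and to 3 and 5 under the looser and the tighter of the stricter gates; with combo it went from 0 to 1, 2 and 6 with no minimum of UMIs and under these gates. In blood endothelial cells with anti-PD-1 it went from 2 to 0 when thinned or at 10% mitochondrial UMIs and to 1 under the looser gate. With anti-LIF it went from 7 to 4 when thinned and to 5, with 0 higher, with 1 count added, when centred or under the looser gate, and with combo from 3 to 5 when thinned, centred or under the looser gate. The cause of these shifts was not tested. Shares of all genes past 2-fold are given for the main setting only. The counts under the alternatives are therefore not read as results about the members. The shares of cancer-like cells with a chain UMI fell with thinning to 74.9%, 47.5%, 21.8% and 24.4%. H2-Ab1 levels were within 1.5 times of those reported in 166 of 194 class, library and setting combinations. In 17 they were lower, down to 0.128 times (T cells of the control library without any marker of another lineage), all in T cells, neutrophils and fibroblasts; in 11 they were higher, up to 2.52 times (mast cells of the anti-LIF library as a mean over cells), in B, venous endothelial, cancer-like and mast cells and fibroblasts. No paired analysis was possible because each group is 1 library. Rare classes, with under 50 cells in control, limit what could be compared.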
